A study of Mus musculus with 12 samples.

Results

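Gtsf1, Rec8 and Ctcfl are genes best known from germ cells, and Rhox5 is a homeobox gene known from Sertoli cells and extraembryonic tissues. The values of all 4 genes were higher in the embryonic mouse ventricle at embryonic day 10 (E10) than at embryonic day 9 (E9). They were chosen by that difference in array intensity, out of 19057 genes with a probe, so their values in the ventricle at E10 against E9 are a description and are given with no test. Each of them had 1 probe on the array. The E10 and E9 values of the atrioventricular canal (AVC) did not enter the choice, and the difference between them is what was tested. The SE and p-values of that test also draw on the spread of the ventricle arrays, because all groups were fitted together.

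Total RNA was profiled on bead arrays from the primary ventricle (LV in the labels) and from the AVC, the segment between atrium and ventricle in which the endocardial cushions form. The groups were LV E10, LV E9, AVC E10 and AVC E9, with 3 arrays each. The labels give the tissue and the age and name no strain, genotype or treatment, and nothing says whether the triplicates came from separate litters or pools, so a p-value here reflects the variation among these samples only, and part of it may be technical. Values are intensities on a linear scale, background subtracted and scaled to 1 mean per array, and a value was taken as above background when it exceeded the size of the most negative value on its array, which lay between 22.4 and 29.6.

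Germ cells carry proteins that most somatic cells do without. Gtsf1 is a small zinc finger protein of the piRNA pathway, in which PIWI proteins loaded with small RNAs silence transposons in the germline. Rec8 is the meiotic kleisin, the subunit that closes the cohesin ring around sister chromatids in meiosis in place of Rad21. Ctcfl, also called Boris, is the testis paralog of the chromatin insulator protein Ctcf. Rhox5 is the founding member of the X-linked Rhox homeobox cluster and is expressed in Sertoli cells and in extraembryonic tissues. In somatic cells many germline promoters are methylated and are held silent by DNA methyltransferases and by repressors such as E2f6.

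RefSeq promoters on the GRCm38.p6 assembly were found for 3 of the 4 genes. The 250 bases before each start are shown, so that the promoters can be read side by side. Capitals mark matches on either strand to TCCCGC, the core of E2F sites, to CCAAT, the NF-Y box, or to CACGTG, an E-box. The Gtsf1 window is chr15:103430428-103430677 on the minus strand, the Rec8 window chr14:55617916-55618165 on the plus strand and the Rhox5 window chrX:37754358-37754607 on the plus strand.
Gtsf1: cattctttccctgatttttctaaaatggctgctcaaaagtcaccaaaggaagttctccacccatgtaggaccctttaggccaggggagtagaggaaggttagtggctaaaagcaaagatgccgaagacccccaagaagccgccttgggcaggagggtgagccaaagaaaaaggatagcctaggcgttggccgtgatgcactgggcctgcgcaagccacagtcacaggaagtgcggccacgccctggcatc
Rec8: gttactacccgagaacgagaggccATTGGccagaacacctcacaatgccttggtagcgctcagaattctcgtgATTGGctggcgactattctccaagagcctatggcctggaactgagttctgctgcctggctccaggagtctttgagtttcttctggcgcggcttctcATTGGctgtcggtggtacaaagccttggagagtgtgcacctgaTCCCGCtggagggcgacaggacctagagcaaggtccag
Rhox5: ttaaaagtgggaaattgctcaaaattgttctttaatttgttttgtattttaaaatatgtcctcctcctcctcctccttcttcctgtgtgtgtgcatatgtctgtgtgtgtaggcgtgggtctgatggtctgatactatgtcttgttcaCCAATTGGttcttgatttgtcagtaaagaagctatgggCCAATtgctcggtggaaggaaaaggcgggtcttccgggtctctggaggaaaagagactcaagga
The Rec8 window held 1 TCCCGC, which began 38 bases before the start, and 3 copies of CCAAT on the minus strand. The Rhox5 window held 3 CCAAT matches, of which 2 overlapped in opposite directions. None of these motifs was in the Gtsf1 window. Of 32851 promoter windows of the same length, 16.9% held TCCCGC, 33.9% held CCAAT and 6.02% held CACGTG. The windows held 7 CpG in Gtsf1, 10 in Rec8 and 4 in Rhox5, against a median of 6 over all windows, where the middle range ran between 2 and 16. Such matches describe letters in a window and are not evidence of binding.

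Gtsf1 had the widest range of the 4. In LV E10 its intensities were 71.9, 1097 and 1414 in replicates 1, 2 and 3, and in LV E9 they were 3.86, 4.30 and 8.57. All 3 LV E10 arrays were above background and none of the LV E9 arrays was, so the difference is given as a bound, at least 18.0-fold. The bound compares the mean of the bright group with the lowest detectable signal of the dim arrays, both as means of log2 values. The LV E10 arrays themselves differed by 19.7-fold between lowest and highest, and without replicate 1 the bound was at least 46.5-fold.

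In the AVC the Gtsf1 intensities were 11.8, 41.0 and 90.0 at E10, and -7.56, 3.84 and -10.4 at E9. All E10 arrays lay over all E9 arrays, but only 2 of the 3 E10 arrays were above background. The log2 difference, with values under 1 set to 1, was 4.49 ± 1.22 (SE, n = 3 arrays in each group) and did not pass the test across all genes (limma, adjusted p = 0.161). That size is set by the floor, and with values under the background limit set to that limit it was 0.91 (adjusted p = 0.687). The bound formed as for the LV would be 1.50-fold, but it includes an E10 array under background, so it is not a minimum rise. At E10 replicates 2 and 3 of the LV exceeded every AVC array, whereas replicate 1 fell inside the AVC range.

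Rec8 was above background on all 6 E10 arrays. Its intensities were 127, 244 and 294 in LV E10 and 21.7, 8.78 and 18.3 in LV E9, where no array was above background, which gave a difference of at least 7.79-fold. Without replicate 1 of LV E10 that bound was at least 9.99-fold. In the AVC it measured 97.3, 56.5 and 111 at E10 and 25.4, 44.2 and 23.6 at E9, with 2 of the 3 E9 arrays above background. The AVC groups did not overlap. The AVC difference was 1.51 ± 0.47 on the log2 scale (SE, n = 3 arrays in each group), 2.85-fold, with an adjusted p of 0.214 (limma).

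Ctcfl had intensities of 41.1, 244 and 265 in LV E10, against 16.6, 8.01 and 11.5 in LV E9. Replicate 1 of LV E10 was again the lowest of its group and stood only a little over background, while the LV E9 arrays were all under it. The LV difference was at least 5.17-fold, and at least 9.49-fold without that replicate. In the AVC, Ctcfl measured 57.1, 130 and 149 at E10 and 15.6, 33.4 and 27.3 at E9, where 2 of 3 arrays were above background. These groups did not overlap either, and the log2 difference of 2.09 ± 0.74 (SE, n = 3 arrays in each group), 4.26-fold, had an adjusted p of 0.273 (limma).

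Rhox5 behaved differently in level and in pattern. It was above background on all 12 arrays. Its intensities were 1277, 776 and 1006 in LV E10 and 682, 466 and 398 in LV E9, a 1.99-fold difference with no overlap. In the AVC it measured 497, 379 and 473 at E10 and 461, 525 and 456 at E9, and these ranges overlapped. The AVC log2 difference was -0.10 ± 0.23 (SE, n = 3 arrays in each group) with an adjusted p of 1 (limma), and its 95% confidence interval ran from -0.64 to 0.43. In contrast to the other 3 genes, replicate 1 of LV E10 had the highest Rhox5 value of its group.

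**Figure D1:**
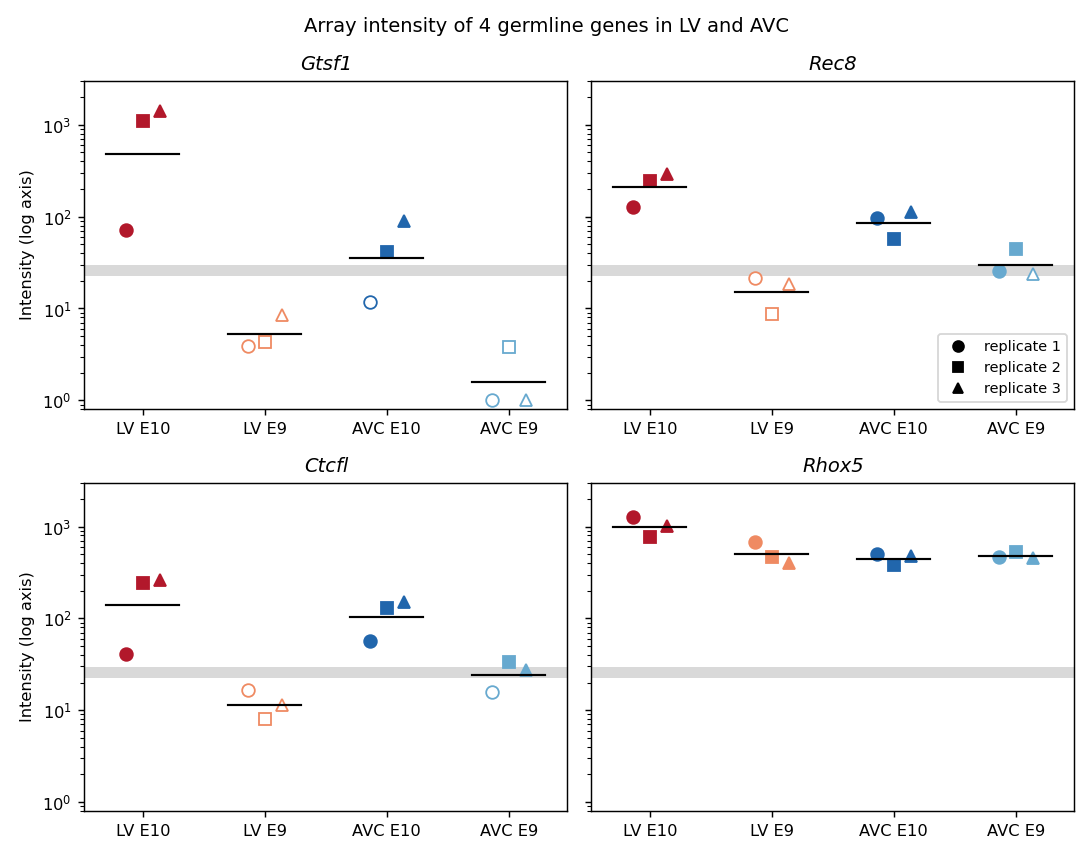
Intensity of Gtsf1, Rec8, Ctcfl and Rhox5 on each of the 12 arrays, on a log axis, in LV E10, LV E9, AVC E10 and AVC E9. Filled symbols were above background and open ones were not, symbol shapes stand for replicates, black bars are geometric means and the grey band spans the background limits of 22.4 to 29.6; values under 1 are drawn at 1. Replicate 1 of LV E10 is the lowest of its group for Gtsf1, Rec8 and Ctcfl and the highest for Rhox5.

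Read against the array as a whole, the age difference in the AVC had the same form for 3 of the 4 genes. In Gtsf1, Rec8 and Ctcfl every AVC E10 array lay over every AVC E9 array, which was the case for 11.6% of all genes. None of the 4 passed an adjusted p of 0.05, a mark that 105 genes, or 0.551% of those tested, reached in that comparison. Of those 105 genes, 82 were higher in AVC E10 (64 of 98 with arrays scaled to 1 median). At an unadjusted p under 0.05, Gtsf1, Rec8 and Ctcfl were higher, as were 7.79% of all genes. The spread was shared by all 4 groups, so the LV arrays also moved these p-values. Without replicate 1 of LV E10 the adjusted p in the AVC was 0.0504 for Gtsf1, 0.134 for Rec8 and 0.0713 for Ctcfl (limma). With only the 2 AVC groups in the fit it was 0.232, 0.269 and 0.252. With limma's array weights, which gave the least weight among AVC arrays to the second AVC E9 replicate and then to the first AVC E10 replicate, the adjusted p-values were 0.00811 for Gtsf1, 0.0167 for Rec8 and 0.0163 for Ctcfl, in a fit that called 2050 genes. In the LV, where the genes were chosen, all 4 had E10 arrays that did not overlap with E9, and 9.33% of all genes did so. Whether the LV and AVC age differences of a gene differed was not tested, because the LV values chose the genes.

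The order of the groups was LV E10, AVC E10, AVC E9, LV E9 by mean intensity for Rec8 and for Ctcfl. No LV E9 array of either gene was above background, so the order of the E9 groups is not firm. With the floor at the background limit, LV E9 minus AVC E9 was -0.17 for Rec8 and -0.033 for Ctcfl on the log2 scale. The LV E10 and AVC E10 ranges overlapped for Ctcfl, as did those of LV E9 and AVC E9. For Gtsf1 the 2 E10 groups came in the same order and both E9 groups were not above background, so they have no order. For Rhox5 LV E10 came first and the other 3 groups overlapped. At E10 every LV array was over every AVC array for Rec8 and Rhox5, as for 3.72% of all genes. For Rec8 the gap was narrow, with 127 the lowest in LV E10 and 111 the highest in AVC E10. For Rhox5 the lowest LV E10 value was 776 and the highest AVC E10 value 497, a 2.24-fold difference between geometric means. These comparisons share the LV E10 arrays with the choice of the genes and were not tested.

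The labelled tissues differed as their names imply. Over the 8 AVC markers the median log2 difference of LV minus AVC was -3.60 at E10 and -2.40 at E9, against medians of -0.18 and -0.08 over the 9931 genes that exceeded background on every array of 1 or more groups. Over 11 chamber markers it was 0.92 at E10 and 1.25 at E9. Replicate 1 of LV E10 stood apart: its mean correlation across 8340 genes with its own group was 0.933, and its closest array was replicate 2 of LV E9, at 0.969. Replicate 1 of AVC E10 was closest to replicate 2 of AVC E9, at 0.979, and it had the lowest Gtsf1 and Ctcfl of its group. In a bulk sample, fewer cells that express a gene and less RNA per cell cannot be told apart.

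Most of the germline genes listed around these genes were not detected. On each array 16 to 27 of the 85 listed genes were above background. Of all probes 36.7% to 41.0% were, a count of probes that is not the same measure, because each gene stands by its brightest probe. The share of all genes that were above background on no array was not counted, but 9931 of 19057 genes were above it on every array of 1 or more groups. Over 5 lists of germline genes (piRNA pathway and germ granule, meiotic chromosome axis and recombination, other Rhox genes, germline genes with methylated promoters, primordial germ cell and pluripotency genes), 85 genes had a probe and 51 of them were above background on no array. Of the 85, 0 passed the test as higher and 1 as lower in LV E10 against LV E9 (limma, adjusted p under 0.05), where 1.37% of all genes were higher and 1% lower. At an unadjusted p under 0.05, 3 were higher and 5 lower, against 8.42% and 11.2% of all genes. In AVC E10 against AVC E9, 0 passed in either direction, and 3 were higher and 6 lower at an unadjusted p under 0.05 (7.79% and 4.74% of all genes). The E10 arrays lay over all E9 arrays for 5.88% of the 85 in each tissue, against 9.33% of all genes in the LV and 11.6% in the AVC. In the LV these were Gpat2 and Ifitm3, above background on all 3 E10 arrays, Tdrd1 and Tdrd12, on 2, and Meioc, on 0. In the AVC they were Stag3, Ifitm3 and Kit, above background on all 3 E10 arrays, and Tex101 and Nxf2, on 0. The median log2 difference over the 34 that were above background on some array was -0.20 in the LV and -0.14 in the AVC, against -0.10 and -0.01 over the 9931 genes.

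Among piRNA pathway genes 0 of 22 passed in either tissue, also at an unadjusted p under 0.05 (limma), and 10 were above background on some array. Gtsf1l and Gtsf2, the paralogs of Gtsf1, were below background on every array. The helicase Mov10l1, which feeds precursor RNA to PIWI proteins, averaged 591 in LV E10 and 635 in LV E9 (adjusted p = 0.846 in limma). Gpat2, an outer mitochondrial membrane acyltransferase needed for piRNA production, averaged 152 in LV E10 and 112 in LV E9 (adjusted p = 0.551). Ddx4, the germ cell helicase known as Vasa, was above background on no array. Of 27 germline genes with methylated promoters 0 passed, and at an unadjusted p under 0.05 the only ones were Nxf2, higher, and Tex19.1, lower, both in the AVC and both above background on no array.

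The meiotic partners of Rec8 did not pass the test either (0 of 20 in each tissue, limma). At an unadjusted p under 0.05, 1 was higher and 1 lower in the LV, Syce1 and Sgo2a, and 0 in the AVC. Stag3, the meiosis-specific cohesin subunit that sits with Rec8, averaged 21.3 in LV E10, 33.3 in LV E9, 72.8 in AVC E10 and 43.9 in AVC E9, with adjusted p-values of 0.471 in the LV and 0.639 in the AVC (limma). In the AVC every E10 array of Stag3 was above background and over every E9 array, as for 11.6% of all genes. In the LV the ranges of Stag3 overlapped. Smc1b and Sycp3, a meiotic cohesin arm and an axis protein, were not above background in any group. Syce1, a part of the synaptonemal complex, averaged 37.8 in LV E10 and 20.8 in LV E9 (adjusted p = 0.251), and Msh5, a meiotic crossover protein, 29.7 in LV E10 and 9.56 in LV E9 (adjusted p = 0.346). Neither was above background on any LV E9 array, so the sizes rest on values under background. Both were lowest in replicate 1 among the LV E10 arrays, where they were also under background. Without that array, Syce1 passed as higher (adjusted p = 0.0468) and Sgo2a, a protector of centromeric cohesion, as lower (0.0253).

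The mitotic counterparts had log2 differences mostly under 0. Ctcf measured 508, 342 and 346 in LV E10 and 674, 578 and 655 in LV E9, a log2 difference of -0.69 ± 0.22 (SE, n = 3 arrays in each group) that did not pass the test (limma, adjusted p = 0.131). The LV E10 and LV E9 ranges of Ctcf did not overlap, and in the AVC they did. Rad21, the mitotic kleisin, averaged 80.3 in LV E10 and 92.4 in LV E9 (adjusted p = 0.837). Over the 16 genes of mitotic cohesin, Ctcf included, the median log2 difference was -0.46 in the LV and -0.19 in the AVC, and 0 of the 16 passed in either tissue. In the LV, 0 of the 16 were higher and 4 lower at an unadjusted p under 0.05, against 8.42% and 11.2% of all genes. In the AVC it was 0 and 1, against 7.79% and 4.74%. Without replicate 1 of LV E10, a setting chosen after seeing the data, 11 of the 16 passed as lower, in a fit that called 7.23% of all genes lower and 6.58% higher.

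Of the 8 other Rhox genes with a probe, 0 passed in either tissue (limma), with Rhox8 higher in the LV and Rhox9 lower in the AVC at an unadjusted p under 0.05, and 2, Rhox9 and Rhox12, were above background on some arrays. Rhox9 measured 92.8, -8.45 and -14.9 in LV E10 and 22.8, 34.4 and 31.4 in LV E9, so that replicate 1 of LV E10 was the only array of its group above background. In the AVC it was above background on 0 of 3 arrays at E10, with 13.9, -4.21 and -3.64, and on all 3 at E9, with 28.3, 60.7 and 47.0. Without replicate 1 of LV E10, Rhox9 passed as lower in LV E10 (adjusted p = 0.0273). Rhox8 also passed, as higher, but was above background on no array.

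Of 19 primordial germ cell and pluripotency genes, 12 were above background on some array and 4 of them, Ifitm3, Kit, Dnd1 and Sall4, on all 12. Kit, a receptor also made by blood and other somatic cells, measured 163 to 209 in LV E10 and 170 to 184 in LV E9. In the AVC it measured 193 to 202 at E10 and 115 to 159 at E9, with no overlap (limma, adjusted p = 0.0988). Dnd1, an RNA-binding protein of germ cells, measured 122 to 182 in LV E10 and 277 to 316 in LV E9 (limma, adjusted p = 0.0583). Tfap2c, a factor of germ cells and trophoblast, was above background on 8 arrays. Nanos3, Dppa3 and Prdm14 were above background on no array, as were Dazl and Ddx4 of later germ cells, and Pou5f1 was above it on 3 of 12 arrays with values close to the limit. Over 19 genes of this list, 0 were higher and 1 lower in LV E10. The gene that fell was Lin28a, an RNA-binding protein of stem cells and early embryos that blocks let-7 maturation. Lin28a measured 55.6, 10.4 and 5.81 in LV E10 and 619, 449 and 742 in LV E9, a log2 difference of -5.30 ± 1.08 (SE, n = 3 arrays in each group, limma adjusted p = 0.0460, and 0.0112 without replicate 1 of LV E10). It was above background on 1 of 3 LV E10 arrays, replicate 1, so the size depends on the floor: with values under the background limit set to that limit, a setting chosen after seeing the data, the difference was -4.26 ± 0.49 (adjusted p = 0.00126). In the AVC it measured 90.7, 8.30 and 7.30 at E10 and 477, 391 and 753 at E9 (adjusted p = 0.0965). Replicate 1 had the highest Lin28a among the E10 arrays of each tissue, the same arrays that had the lowest Gtsf1 and Ctcfl.

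Sall4, a zinc finger factor of stem cells and early embryos, showed a like spread. It measured 341, 187 and 297 in LV E10 and 1733, 1113 and 1872 in LV E9 (limma, adjusted p = 0.0757), and 559, 88.5 and 164 in AVC E10 and 1326, 830 and 1744 in AVC E9 (adjusted p = 0.115). Ifitm3, a membrane protein of early germ cells that is also made in many somatic tissues, averaged 287 in LV E10 and 157 in LV E9 (adjusted p = 0.0917). Without replicate 1 of LV E10 it passed as higher (adjusted p = 0.0365).

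**Figure D2:**
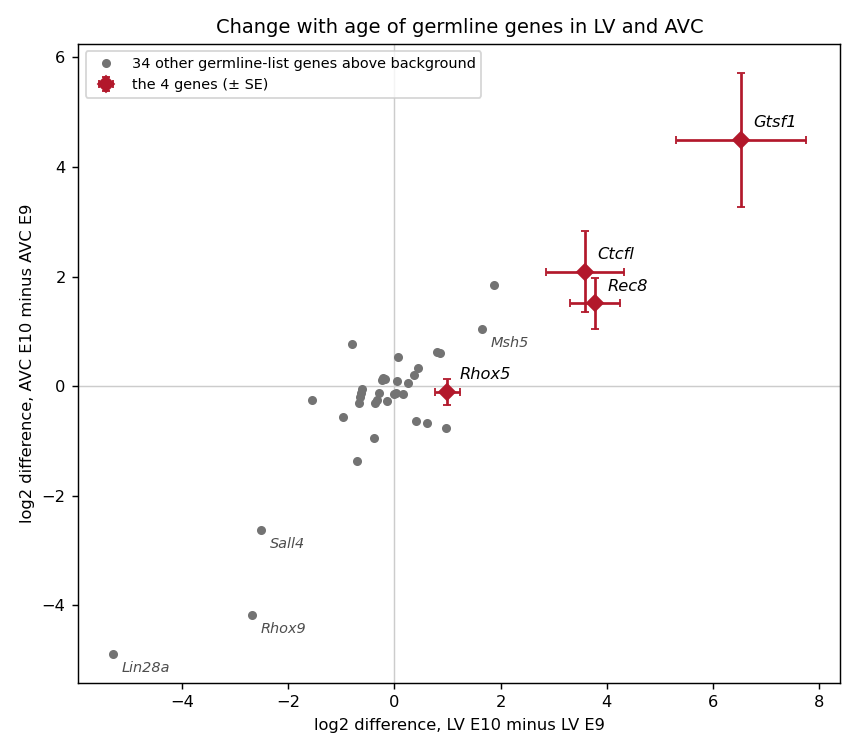
The log2 difference of E10 minus E9 in the LV (horizontal) and in the AVC (vertical) for Gtsf1, Rec8, Ctcfl and Rhox5 (diamonds, with SE) and for the 34 genes of the 5 germline lists that were above background on at least 1 array (dots). Gtsf1, Ctcfl and Rec8 lie to the upper right at 4.49, 2.09 and 1.51 in the AVC, Rhox5 lies near 0 in the AVC, and Lin28a lies at the lower left.

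None of 22 genes for DNA methylation and germline gene repression passed the test in either tissue (limma), and 15 of them exceeded background on each of the 12 arrays. In the LV 0 were higher and 6 lower at an unadjusted p under 0.05, against 8.42% and 11.2% of all genes. In the AVC 0 were higher and 4 lower, against 7.79% and 4.74%. Dnmt3b, a de novo DNA methyltransferase, measured 725, 400 and 422 in LV E10 and 1058, 1006 and 1152 in LV E9, with no overlap (adjusted p = 0.0697). In the AVC it averaged 758 at E10 and 1360 at E9 (adjusted p = 0.227). E2f6, the repressor of meiotic genes, measured 2254, 2468 and 2555 in LV E10 and 3128, 2726 and 2731 in LV E9 (adjusted p = 0.248). Pcgf6 and L3mbtl2, partners of E2f6 in a Polycomb complex, had adjusted p-values of 0.0952 and 0.0815 in the LV, with log2 differences under 0. Without replicate 1 of LV E10, 6 of the 22 passed as lower, Dnmt3b, Pcgf6 and L3mbtl2 among them, against 7.23% of all genes. Promoter methylation itself was not measured.

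Markers of other cell types were set beside the 4 genes. The summed intensity of 14 yolk sac and visceral endoderm genes, values below 0 included, was 4726, 1167 and 444 in LV E10 and 873 to 1192 in LV E9, so replicate 1 of LV E10, which had the highest Rhox5, also had the highest endoderm sum. Afp, an endoderm marker, measured 527, 114 and 9.71 on those LV E10 arrays. Without replicate 1, the 2 remaining LV E10 arrays averaged 1.76-fold over LV E9 for Rhox5. The endoderm sum in the AVC was 573 to 2366 at E10 and 675 to 1563 at E9. Among the AVC E10 arrays it was highest in replicate 2, which had the lowest Rhox5 of that group, 379. The part of these cells in the Rhox5 values was not tested.

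The white blood cell and megakaryocyte list summed to 3862 to 5380 in LV E10 and 2593 to 4263 in LV E9, and to 2098 to 5618 in AVC E10 and 1061 to 1992 in AVC E9. It was highest in replicate 2 in both E10 groups. Ptprc, the common leukocyte antigen, was above background on no array and Csf1r, the macrophage growth factor receptor, on 4 of 12. Csf1r measured 31.5, 30.6 and 17.8 in LV E10 and 22.6, 133 and 128 in AVC E10. None of the 9 genes passed in either tissue (limma), and at an unadjusted p under 0.05, 2 were higher in LV E10 and 5 in AVC E10, with 0 lower. Over all genes that mark was met by 8.42% as higher and 11.2% as lower in the LV. In the AVC it was met by 7.79% and 4.74%. The erythroid sum was 117717 to 203622 in LV E10 and 145436 to 180822 in LV E9, highest in replicate 1 of LV E10. None of the 14 endoderm, 11 trophoblast, 9 erythroid or 4 sex-linked genes passed the test in either tissue (limma). At an unadjusted p under 0.05, 2 endoderm genes were higher and 2 lower in the LV (1 and 2 in the AVC), 1 trophoblast gene was higher and 1 lower in the LV (0 and 1 in the AVC), and of the erythroid and sex-linked genes only Eif2s3y passed, as lower in the AVC. Of 10 endothelial genes, Pecam1, an endothelial adhesion molecule, rose in the LV, with a mean of 459 in LV E10 and 197 in LV E9 (limma, adjusted p = 0.0437), and 0 passed in the AVC. At an unadjusted p under 0.05, 4 of the 10 were higher in LV E10 and 6 in AVC E10, with 0 lower in either tissue. Of all genes, 8.42% were higher in LV E10 and 7.79% in AVC E10 at that mark. The median log2 difference of the list was 0.26 in the LV and 0.63 in the AVC. With replicate 1 of LV E10 left out, Pecam1, Tek, Tie1, Emcn and Cd34 passed as higher in the LV, against 6.58% of all genes. The summed intensity of the list was 7347 to 10301 in AVC E10 and 5331 to 6113 in AVC E9, the tissue and ages at which Gtsf1, Rec8 and Ctcfl also did not overlap, and its part in those differences was not tested. No cell cycle gene of 15 and no pan-cardiac gene of 10 passed in either tissue. At an unadjusted p under 0.05, 5 of the 15 were lower in the LV and 2 in the AVC, as were 2 of the 10 in each tissue. Of all genes, 11.2% were lower in the LV and 4.74% in the AVC at that mark. Without replicate 1 of LV E10, 7 of the 15 cell cycle genes passed as lower, against 7.23% of all genes. In the same fit 4 of 11 chamber genes, Nppb, Gja5, Gja1 and Cited1, passed as higher, against 6.58% of all genes.

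**Figure D3:**
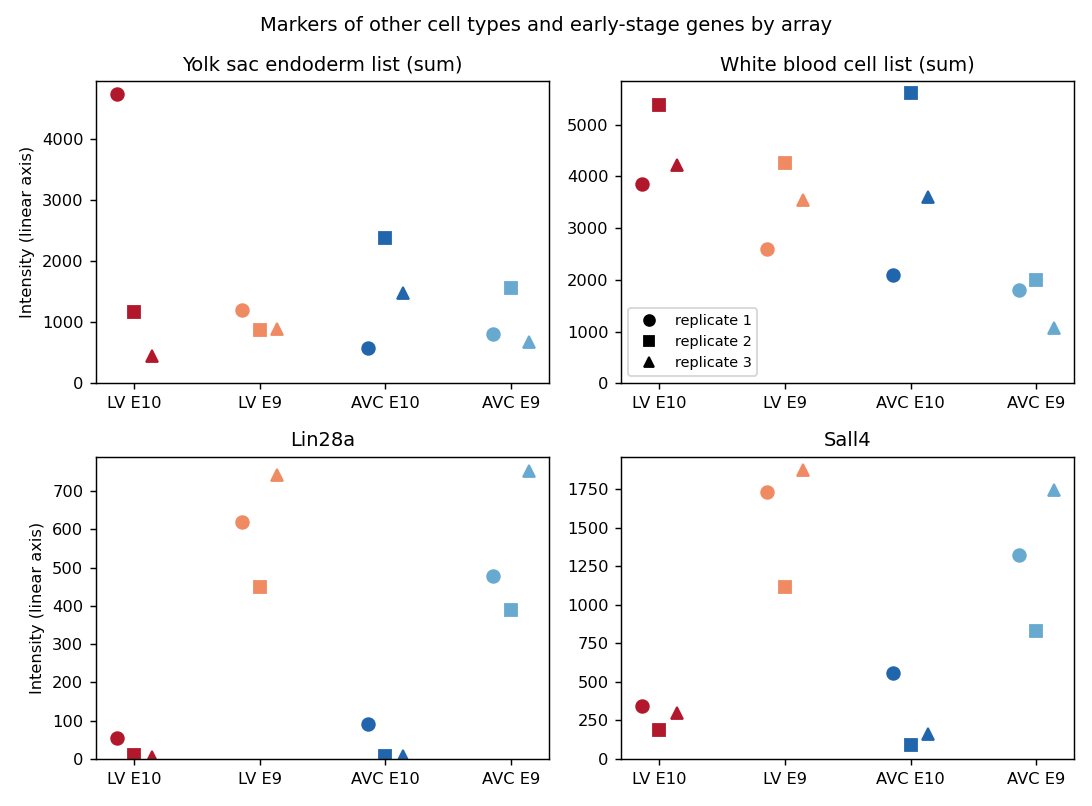
Summed intensity of the yolk sac and visceral endoderm list (14 genes) and of the white blood cell and megakaryocyte list (9 genes), and intensity of Lin28a and Sall4, on each array in LV E10, LV E9, AVC E10 and AVC E9, on linear axes that start at 0; symbol shapes stand for replicates. Replicate 1 of LV E10 has the highest endoderm sum of all arrays, 4726, and the highest Lin28a and Sall4 of its group.

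The genes whose pattern over the 12 arrays was closest to each of the 4 were found by Pearson correlation of log2 values among the 9931 genes above background. The arrays fall into the 4 groups that define the pattern, so the coefficients describe likeness and carry no p. The genes found this way were chosen by the same 12 arrays, and their values are likewise given with no test. Gtsf1 was closest to Lyz2, Prr15, Lyz1 and Idh3g (r = 0.963, 0.957, 0.955 and 0.955). Lyz2, the lysozyme of macrophages, measured 321, 1230 and 1265 in LV E10 and 228, 161 and 214 in LV E9, and thus repeated the low replicate 1. In the AVC it averaged 281 at E10 and 108 at E9. Its neighbour Lyz1 is a near-identical gene, and their probes may share signal. Of the other white blood cell and megakaryocyte genes, Csf1r, Fcgr3, Cd53, Laptm5 and Pf4 had their highest array in AVC E10, and Itga2b and Spi1 in LV E10. The part of such cells in the Gtsf1 values was not tested. Prr15, a small proline-rich protein, averaged 480 in LV E10 and 34.9 in LV E9, and 101 in AVC E10 and 20.3 in AVC E9.

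Rec8 was closest to Cox8b (r = 0.959), a muscle form of a cytochrome c oxidase subunit, followed by Chmp2a, Nod1 and Idh2. Cox8b measured 174, 1104 and 1275 in LV E10 and 48.3, 25.7 and 47.4 in LV E9, again with a low replicate 1. Nod1, a sensor of bacterial peptidoglycan, averaged 165 in LV E10 and 37.2 in LV E9, and 130 in AVC E10 and 40.1 in AVC E9. Ctcfl was closest to Pon3, a lactonase (r = 0.976), then to Spon2, Hint3 and Ascc1. Spon2, a secreted matrix protein, measured 625, 3145 and 3156 in LV E10 and 270, 200 and 183 in LV E9. It averaged 2046 in AVC E10 and 396 in AVC E9, which, as for Ctcfl, left the LV E10 and AVC E10 ranges overlapping.

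Rhox5 had the weakest likenesses, with Ggact at 0.849 and then Pole4, Pde4d and Nfs1. The mean of the 4 standardised patterns was closest to Acadvl, an enzyme of mitochondrial fatty acid oxidation, at 0.960. Acadvl measured 848, 1257 and 1373 in LV E10 and 548, 583 and 548 in LV E9, with no overlap. Prr15, Cox8b, Tnni3k (a cardiac kinase), Tmem71 and Sirt3 (a mitochondrial deacetylase) came next. Of these, Tmem71 was not above background in the E9 groups by its mean.

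**Figure D4:**
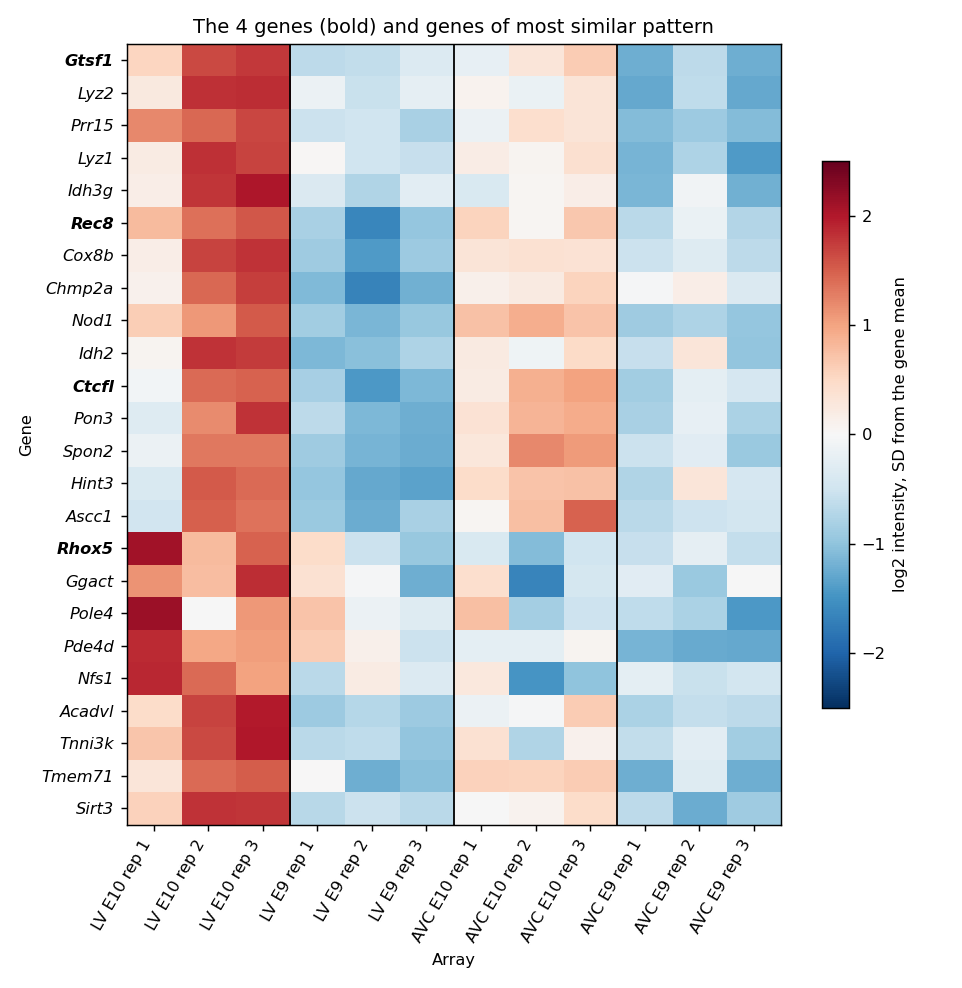
Log2 intensity of the 4 genes (bold) and of the genes with the most similar pattern to each of them and to their mean, across the 12 arrays, in SD from each gene's mean over the arrays. Columns run from LV E10 through LV E9 and AVC E10 to AVC E9; LV E10 replicates 2 and 3 are high in nearly every row, and replicate 1 is high mainly in Rhox5 and the genes closest to it.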

How the data were processed

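RNA from the primary ventricle (LV) and AVC of E10 and E9 embryos was hybridised to Illumina Mouse WG-6 v2 BeadChips. The intensity values deposited by the authors are linear, with 34.7% of values below 0 and a mean of 386 on each of the 12 arrays. The values thus had been background subtracted and scaled. The methods name GeneSpring GX for the analysis, and do not say which program made the deposited values.

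Gene symbols of the 45281 probes were taken from the platform annotation. A single symbol was given for 34885 probes, several for 18 and none for 10378. Each of the 19057 genes was represented by its probe with the highest mean. Values under 1 (36.8% of all) were set to 1 and log2 transformed. The 4 groups were fitted together with limma 3.58.1 in R 4.3.3, over all probes, and two-sided p-values received a Benjamini-Hochberg adjustment over all genes, with 0.05 as the threshold. The procedure was tested on simulated data. The number of arrays limits the precision.

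The 4 genes, the 17 gene lists (223 of 250 genes measured) and the tests were chosen with earlier results of these data known. Besides the 4 genes, those named were the called or family members of each list, and the 4 genes of most similar pattern to each gene and 6 to their mean. Other list genes were named after their values were seen. The array's own genome build: not given in the sources used here. Normalization, floor, replicate block, gene filter, array weights, samples in the fit and left-out arrays were varied.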

Additional observations from a re-analysis of the deposited data

How the results depend on the processing

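In the AVC, Gtsf1, Rec8 and Ctcfl were higher at E10 than at E9 under all 20 alternatives, with log2 differences of 0.91 to 5.60, 1.14 to 1.88 and 1.57 to 2.56. The lowest Gtsf1 value, 0.91, came with the floor at the background limit, and 16 added gave 1.68. They passed an adjusted p of 0.05 in limma only with array weights (Gtsf1 5.60, Rec8 1.88, Ctcfl 2.56) and, for Rec8, with the floor at the background limit (1.49, adjusted p = 0.0355). The adjusted p otherwise reached up to 0.687 for Gtsf1, 0.546 for Rec8 and 0.610 for Ctcfl. Rhox5 ranged from -0.18 to 0.015, and without replicate 2 of AVC E10 it was 0.015.

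Differences against groups under background moved with the floor. In LV E10 minus LV E9, Gtsf1 was 4.17 and Rec8 2.96 and Ctcfl 2.37 with the floor at the limit, and Gtsf1 4.60 and Rec8 2.83 with 16 added. In LV E9 minus AVC E9, Gtsf1 was 0.20 and Rec8 -0.17 and Ctcfl -0.033 with the floor at the limit, and Gtsf1 0.32 with 16 added. In LV E10 minus AVC E10, Ctcfl ran from -0.05 to 1.30, and the sign turned under 2 of 11 alternatives. Quantile normalization or scaling to 1 median put the median of the 9931 genes between -0.04 and 0.03 in all 4 comparisons, against -0.18 in LV minus AVC at E10 with the values as deposited.

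Counts of called genes were 452 (LV age), 105 (AVC age), 438 (LV against AVC at E10) and 195 (at E9). In the same order they were 964, 497, 735 and 370 with the floor at the limit, 3997, 2050, 2143 and 636 with array weights, and 75, 21, 72 and 83 with only the 2 groups in the fit. With only genes above background tested, 965 genes were called for LV age, 201 for AVC age and 303 at E9. Quantile normalization gave 51 for AVC age and 273 at E10, scaling to 1 median 264 at E10, 16 added 187 for AVC age, and a 4-fold change at an unadjusted p of 0.01 gave 260 for AVC age and 269 at E10. Leaving out 1 array gave 54 to 2630, 25 to 465, 97 to 730 and 59 to 422. The count for LV age was 2630 without replicate 1 of LV E10. The cause was not tested.

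With a replicate block, 794 genes were called for LV age and 66 for AVC age, and the adjusted p for AVC age was 0.108 for Gtsf1, 0.260 for Rec8, 0.231 for Ctcfl and 0.986 for Rhox5. Deviations of same-numbered arrays correlated at -0.37 to 0.52, and since not every pair was over 0.1 the numbers were not taken to pair the arrays. As a hint from the data, 8 of 12 arrays matched their own number best. Each gene had 1 probe, so no other probe could be tried.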
